A study of Homo sapiens with 6 samples.

Results

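The genes described here are the numbered zinc finger (ZNF) genes of human chromosome 19, chosen from the deposited count table as protein-coding rows of chromosome 19 whose symbol is ZNF followed by digits and an optional letter. The rule used names and positions only and found 246 of the 62710 genes in the table. A further 261 genes with such symbols lay on other chromosomes, and chromosome 19 held 1230 other protein-coding genes. RNA was measured in HCT116, an established human colon cancer cell line, in which the RNA-binding protein IGF2BP3 was depleted with a short hairpin RNA. The 3 sh-NC libraries came from cells with a scrambled hairpin and the 3 sh-IGF2BP3 libraries from cells with the hairpin against IGF2BP3. Both groups had been made with lentivirus and selected with puromycin, so the controls also carried a vector and had met the drug. The labels do not say whether the libraries of a group came from separate cultures, so the p-values measure the spread between these libraries, which may be technical. Values for 3 libraries of a group are given in the order 1, 2 and 3, with sh-NC as the control and sh-IGF2BP3 as the knockdown libraries.

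Most of these genes encode proteins of the C2H2 type, in which a pair of cysteines and a pair of histidines hold a zinc ion in each finger, and a row of fingers reads a stretch of DNA. Many also carry a KRAB box ahead of the fingers. KRAB recruits the corepressor TRIM28, which brings in the histone methyltransferase SETDB1, and many KRAB zinc finger proteins silence transposable elements. The genes arose largely by tandem duplication, which is why they stand in clusters and resemble each other, and chromosome 19 is known for the largest of these clusters.

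The repeated unit is short enough to be shown. Below is the coding DNA of the first finger of a fixed spacing within a single exon. It spans 63 bases from the first zinc-holding cysteine to the last zinc-holding histidine, and fingers of other spacings were passed over. For each gene a coding transcript of GENCODE 29 was chosen, with a tag as principal ranked first, then completeness, then length. The capitals mark the codons of the cysteines and histidines, and each run is written 5′ to 3′ on the strand of its gene. ZNF525, ZNF28 and ZNF302 are shown because they were among the genes with the smallest p on the lower side of the comparison, and ZNF579, ZNF865 and ZNF787 because they were so on the higher side. ZNF146 is shown as the member with the highest level, and ZNF585A and ZNF585B as neighbours that share much of their sequence.
ZNF525: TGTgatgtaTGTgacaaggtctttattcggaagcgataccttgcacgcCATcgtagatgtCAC
ZNF28: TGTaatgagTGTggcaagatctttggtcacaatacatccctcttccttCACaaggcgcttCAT
ZNF302: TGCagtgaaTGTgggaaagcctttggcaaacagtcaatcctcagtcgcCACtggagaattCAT
ZNF146: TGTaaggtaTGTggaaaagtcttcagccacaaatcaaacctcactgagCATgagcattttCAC
ZNF585A: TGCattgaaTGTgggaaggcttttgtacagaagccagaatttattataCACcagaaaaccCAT
ZNF585B: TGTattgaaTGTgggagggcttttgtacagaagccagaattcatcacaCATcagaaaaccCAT
ZNF579: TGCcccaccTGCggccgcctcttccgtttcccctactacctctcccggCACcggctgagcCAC
ZNF865: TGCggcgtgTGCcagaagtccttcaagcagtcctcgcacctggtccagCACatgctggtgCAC
ZNF787: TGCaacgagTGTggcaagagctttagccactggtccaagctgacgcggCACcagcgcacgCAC

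On GRCh38 these fingers lie in coding exons at chr19:53381312-53381374 (ZNF525, plus strand), chr19:52800966-52801028 (ZNF28, minus), chr19:34684644-34684706 (ZNF302, plus) and chr19:36236492-36236554 (ZNF146, plus). The others lie at chr19:37153359-37153421 (ZNF585A, minus), chr19:37186997-37187059 (ZNF585B, minus), chr19:55579442-55579504 (ZNF579, minus), chr19:55614294-55614356 (ZNF865, plus) and chr19:56088908-56088970 (ZNF787, minus). The search fixed the zinc-holding residues and their spacing, so these are alike in all, but the fingers differ in base composition. The GC content of the finger was 46.0% in ZNF525, 44.4% in ZNF28 and 47.6% in ZNF302, against 69.8% in ZNF579 and 61.9% in both ZNF865 and ZNF787. The difference was largest at the last base of the codon, which was G or C in 8, 11 and 10 of 21 codons in ZNF525, ZNF28 and ZNF302, and in 20, 21 and 19 of 21 in ZNF579, ZNF865 and ZNF787. The fingers of ZNF585A and ZNF585B differed at 6 of 63 bases. A short read from such a stretch can fit several genes, and how such reads were assigned is not given in the sources used here.

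Of the 246 genes, the protein predicted from the chosen coding transcript held a median of 12 fingers, with 36 in the richest. Letters of a KRAB A box were found in 196 genes, ahead of the first finger except in ZNF738, whose predicted protein held 0 fingers. Those letters were tryptophan or leucine, then 9 to 12 residues, then tyrosine, any pair of residues, valine and methionine. At windows of 75 bases, 137 genes shared no window with another gene, and 26 shared more than 20% of their windows. ZNF585B shared 40.3% of its windows and ZNF585A 39.2%, so their separate levels are uncertain.

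The libraries held 16146718 to 23576469 counts on genes, and those of 1 group differed among themselves by more than counting noise. Among colon epithelial markers, VIL1 had 9 counts in all 6 libraries together and CDX2 10.9 to 23.8 CPM (counts scaled to a common library total), while the summed level of the 7 markers was 2028 to 3702 CPM in sh-NC and 3142 to 4175 CPM in sh-IGF2BP3 libraries. Most of that sum was KRT8, at 1181 to 2169 and 1943 to 2583 CPM, while CDH1 was at 125 to 163 CPM in sh-NC and 92.4 to 116 CPM in sh-IGF2BP3 libraries, lower without overlap. The 5 leukocyte markers summed to at most 0.92 CPM, the 4 endothelial markers to at most 4.44 CPM, and the 5 fibroblast markers to 28.3 to 58.7 CPM, nearly all of it COL1A1, with COL1A2 and LUM at 0. IGF2BP3, the target of the hairpin, was at 90.3, 84.1 and 70.3 CPM in the control libraries and 60.2, 52.3 and 55.8 CPM in the knockdown libraries. The groups did not overlap (exact permutation test, two-sided, p = 0.1, which is the smallest p of a design of 3 and 3), and the log2 fold change came to −0.54 ± 0.181 (standard error), with an adjusted p of 0.126 in edgeR. It was −0.26, with an unadjusted p of 0.181 in edgeR, once trends with base composition and length were taken out, as described below for the ZNF genes.

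Many of the chromosome 19 ZNF genes had few or no counts in HCT116. No count was found in any of the 6 libraries for 57 of the 246 genes (23.2%), against 24 of the 261 ZNF genes on other chromosomes (9.20%) and 176 of the 1230 other coding genes of chromosome 19 (14.3%). A gene at 0 may still have had up to 3 counts in a library of this depth. That is 0.127 to 0.186 CPM on the raw library totals, without the TMM scaling of the other CPM values. Of the 57 genes, 32 shared no window of 75 bases with another gene, and 5 shared more than 20% of theirs, with ZNF223 and ZNF284 sharing all, so that a 0 there may also stand for reads that were not assigned. Another 24 genes had 1 to 9 counts in all, and 9 had 10 or more but did not pass the filter on low counts, leaving 156 genes for the test. The highest total among the genes left out was 59 counts, the lowest among the genes tested was 66, and the median of the tested genes was 925 counts over 6 libraries.

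Clusters along the chromosome held different numbers of genes at 0 counts, with no test made of the difference. The cluster from 19668796 to 24129968, next to the centromere, held 37 ZNF genes, of which 20 were at 0 counts and 15 could be tested. From 36182276 to 37817300, 11 of 26 were at 0, from 11483427 to 12640098 it was 6 of 25, and from 43525497 to 45076478 it was 4 of 24. The cluster from 51571283 to 53580269 had 4 of 39 at 0 and the last cluster of the chromosome 11 of 59. None of the 15 genes from 7069703 to 9793180 was at 0. Of the 57 genes at 0, 50 had KRAB letters, against 196 of all 246. Their promoters, taken from RefSeq as the 250 bases before to the 50 bases after the gene start (216 of the 246 genes matched), held a median of 17 CG dinucleotides (quartiles 12.25 and 25.75, n = 50 matched genes), against 21 (quartiles 16.25 and 26, n = 138) for the genes tested.

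Levels of the genes that were detected were low. The FPKM scale, counts per kilobase of gene and per library total, can compare genes per length, and on that scale 108 of the 246 genes reached a mean of 1 and 17 a mean of 5. The median of the 156 tested genes was 1.74 FPKM, against 5.28 FPKM over the 13140 tested protein-coding genes of the table. The highest level was 57.3 FPKM for ZNF146, whose protein consists almost only of fingers and had no KRAB letters. ZNF121 followed at 23.2 FPKM, ZNF317 at 14 FPKM and ZNF581 at 10.3 FPKM.

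The chromosome 19 ZNF genes took a smaller share of the counts in sh-IGF2BP3 libraries. Their share was 0.228%, 0.261% and 0.283% in the control libraries and 0.203%, 0.204% and 0.213% in the knockdown libraries. The groups did not overlap, although sh-NC 1 lay closer to the sh-IGF2BP3 libraries than to sh-NC 3. The means were 0.257% ± 0.0278 (SD, n = 3) and 0.207% ± 0.00588 (SD, n = 3), a ratio of 0.804. The summed FPKM of the genes was 424, 468 and 500 in the control libraries and 407, 403 and 400 in the knockdown libraries, again without overlap. ZNF genes on other chromosomes took 0.653%, 0.704% and 0.778% of the counts in the control libraries and 0.606%, 0.593% and 0.643% in the knockdown libraries, a ratio of means of 0.863. In bulk RNA, fewer cells that express a gene and less RNA per cell cannot be told apart.

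**Figure D1:**
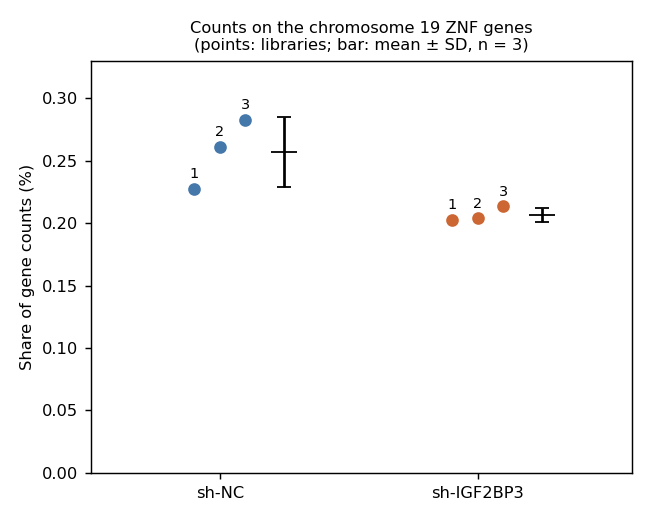
Share of gene counts (%) taken by the 246 ZNF genes of chromosome 19 in each library, with sh-NC in blue and sh-IGF2BP3 in orange, points numbered by library and bars for the mean ± SD of 3 libraries. The 3 sh-IGF2BP3 libraries sit between 0.203% and 0.213%, below the sh-NC libraries at 0.228% to 0.283%.

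The fit over 16753 genes tested which single genes differed between the groups. No ZNF gene of chromosome 19 passed an adjusted p of 0.05 together with a 1.5-fold change in edgeR, as was the case for 0% of all genes tested, and the smallest adjusted p among them was 0.103. Unadjusted, edgeR gave p under 0.05 to 37 genes that were lower (23.7% of the 156, against a background of 8.54% of all genes tested) and 14 higher (8.97%, against 13.6%). With a block for libraries of the same number, 20 were lower and 13 higher at that p. Every library of the knockdown lay on the same side of every control library in 49 genes that were lower (31.4%, background 11.0%) and 9 higher (5.77%, background 13.2%), the latter being ZNF358, ZNF576, ZNF428, ZNF579, ZNF865, ZNF784, ZNF787, ZNF444 and ZNF324B. DESeq2, the other tool run, gave an adjusted p for 140 of the genes and called 4 lower (background 1.05%) and 7 higher (background 4.29%). The count of 0 in edgeR depended on the sh-NC 1 library, since without it edgeR called 17 of the genes lower and 12 higher, against 15.7% of all genes tested in either direction. Without sh-IGF2BP3 3 it called 0 lower and 6 higher, against 1.31% of all genes. With no filter on low counts it called 3 lower and 7 higher, against 2.30% of all genes. On leaving out any single library, the genes lower at an unadjusted p under 0.05 ranged from 13, without sh-IGF2BP3 2, to 54, without sh-NC 1. For these fits and the block, no share of all genes tested is given at that p. Their counts cannot be set against the whole table.

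The direction was lower for 128 of the 156 genes and higher for 28, with a median log2 fold change of −0.37 (quartiles −0.54 and −0.13, range −1.25 to 1.5). The median was −0.014 over all genes tested, −0.20 over the 217 tested ZNF genes of other chromosomes and 0.50 over the 790 other tested coding genes of chromosome 19. The ZNF genes thus had a median on the other side of zero from their coding neighbours on the chromosome. Set against their own mean over the 6 libraries, the 156 genes had median deviations, in log2 CPM, of 0.02, 0.22 and 0.26 in the control libraries and −0.22, −0.19 and −0.06 in the knockdown libraries. The libraries nearest to each other across the groups were sh-NC 1 and sh-IGF2BP3 3.

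These fold changes followed base composition. Across the 156 tested genes, which share the 6 libraries and in part their sequence, the log2 fold change had a Spearman correlation of 0.53 with the GC content of the transcript and of 0.56 with the GC content at the last base of codons. It was −0.39 with transcript length, −0.35 with the number of fingers, −0.13 with the mean CPM and 0.079 with the start of the gene on the chromosome. The same lean was present in the table as a whole, with a correlation of 0.611 between log2 fold change and GC content over 16236 tested genes. The fold changes of named genes are therefore given below both from the counts as deposited and after each library's trend with GC content and gene length was taken out, written as trends removed. The correlation of the 156 genes with GC content was then 0.24, so a part of the lean remained.

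With the trends removed, the median log2 fold change of the 156 genes was −0.14, against 0.01 over all genes tested, −0.03 over ZNF genes of other chromosomes and 0.11 over other coding genes of chromosome 19. Of the 156 genes, 109 were then lower and 47 higher, against 8137 lower and 8616 higher of all 16753 genes tested. At an unadjusted p under 0.05, edgeR gave 8 lower (5.13%, background 3.65%) and 3 higher (1.92%, background 6.77%), with a smallest adjusted p of 0.406. The 8 were ZNF302, ZNF808, ZNF28, ZNF525, ZNF805, ZNF416, ZNF211 and ZNF776, and the 3 were ZNF576, ZNF428 and ZNF579, each of which had an unadjusted p under 0.05 in the same direction from the counts as deposited. Those that the rule for named genes does not cover were named after their values were seen.

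By class of GC content, the 31 tested genes under 40% had a median log2 fold change of −0.47, against −0.35 for all tested genes of that class. The 67 genes from 40% to 45% had −0.44 against −0.25, and the 29 genes from 45% to 50% had −0.35 against −0.10. The 29 genes at 50% or over had 0.59 against 0.30, with 25 higher and 4 lower, and held all 14 of the genes that were higher at an unadjusted p under 0.05. That is 48.3% of the 29, against 26.8% of the 7464 tested genes of that class in the whole table, which held 1999 of the 2283 higher genes of the table at that p. The medians with the trends removed were −0.14, −0.18, −0.23 and 0.23 in the same order of classes.

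**Figure D2:**
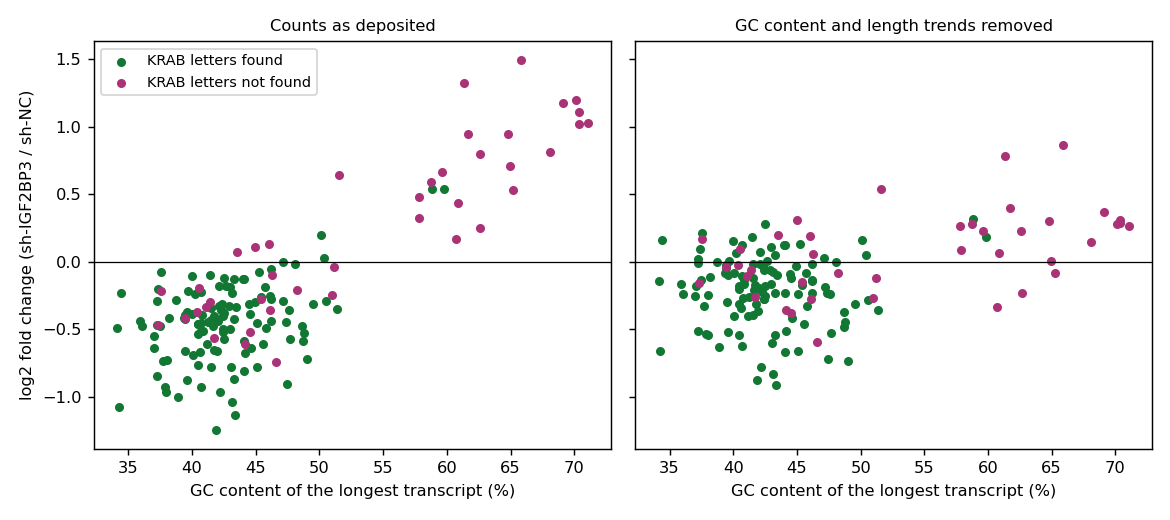
Log2 fold change of the 156 tested genes against the GC content of their longest transcript (%), from counts as deposited (left) and with trends removed (right), with KRAB letters found in green and not found in purple. The green points lie mostly under 50% GC and below 0, with a median of −0.44 on the left and −0.18 on the right.

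The libraries did not share this lean equally. For the 29 genes with at least 50% GC, the median deviation in log2 CPM was −0.10, −0.44 and −0.46 in the control libraries and 0.54, 0.30 and 0.02 in the knockdown libraries. Of the pairs of a control and a knockdown library, sh-NC 1 and sh-IGF2BP3 3 differed least, and sh-NC 3 and sh-IGF2BP3 1 most. The part of library preparation or sequencing in this was not tested.

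**Figure D3:**
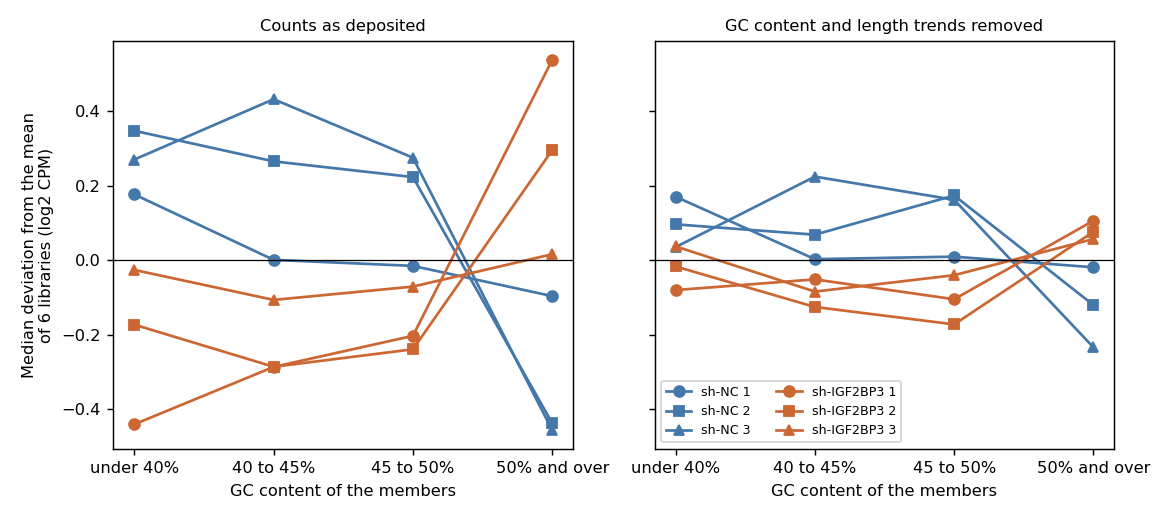
Median deviation of each library (log2 CPM, from the gene's mean over 6 libraries) for the tested genes in 4 classes of GC content, with a line for each library, from counts as deposited (left) and with trends removed (right). On the left the lines cross between the classes below and above 50% GC, where they run from −0.46 to 0.54, and on the right they lie closer together.

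The genes were also divided by the presence of KRAB letters. Of the 115 tested genes with KRAB letters, 111 had a lower value in sh-IGF2BP3 and 4 a higher one, with a median log2 fold change of −0.44. Unadjusted, 34 of them (29.6%) were lower and 0 higher at p under 0.05 in edgeR, against 8.54% and 13.6% of all genes tested. Of all tested genes with like GC content, 26.1% were lower at that p under 40% GC, 15.7% from 40% to 45% and 5.66% from 45% to 50%. Of the 41 tested genes without the letters, 17 were lower and 24 higher, with a median of 0.17, and 3 were lower and 14 higher (34.1%) at that p, with 26.8% of all tested genes at 50% GC or over being higher. With the trends removed, the medians were −0.18 and 0.09. The KRAB genes, 115 of the 156 tested, then held all 8 of the genes lower at that p. Those 8 were 6.96% of the KRAB genes, against 3.65% of all genes tested. The 7 genes that DESeq2 called higher had no KRAB letters and the 4 that it called lower had them, while 521 of its 562 higher calls over all genes lay at 50% GC or over.

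KRAB letters and GC content went together, since 23 of the 29 tested genes with at least 50% GC had no KRAB letters. Under 50% GC, all 109 tested genes with KRAB letters had a lower value in sh-IGF2BP3 in edgeR, 90 of them still with the trends removed (median −0.19). The smallest of these differences was that of ZNF77, whose log2 fold change was 0.0125 in DESeq2. In the deposited counts, 86.8% of all tested genes were lower under 40% GC, 75.8% from 40% to 45% and 61.2% from 45% to 50%. With the trends removed, 1226 of 2405 were lower under 40% GC and 1676 of 3414 from 40% to 45%. From 45% to 50% it was then 1434 of 2953. Of the 18 genes under 50% GC without the letters, 15 were lower, with a median of −0.32, or −0.08 with the trends removed. At or above 50% GC, the 6 KRAB genes had a median of 0.11 and the 23 others 0.71, or 0.10 and 0.27 with the trends removed. In the 68 tested genes with no shared window and no overlapping gene on the same strand, the median was −0.32, or −0.06 with the trends removed.

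Along the chromosome, a new cluster was started wherever consecutive ZNF genes began more than 1 Mb apart, which gave 16 clusters. Of these, 7 held at least 10 genes, and together they held 225 of the 246. Medians were below zero in every cluster with a tested gene except that of ZNF574 and ZNF526, which had 0.38 and a high GC content. Neighbouring tested genes in a cluster had log2 fold changes that correlated at 0.41 over 141 adjacent pairs, or 0.32 with the trends removed, and such neighbours share composition and sequence.

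**Figure D4:**
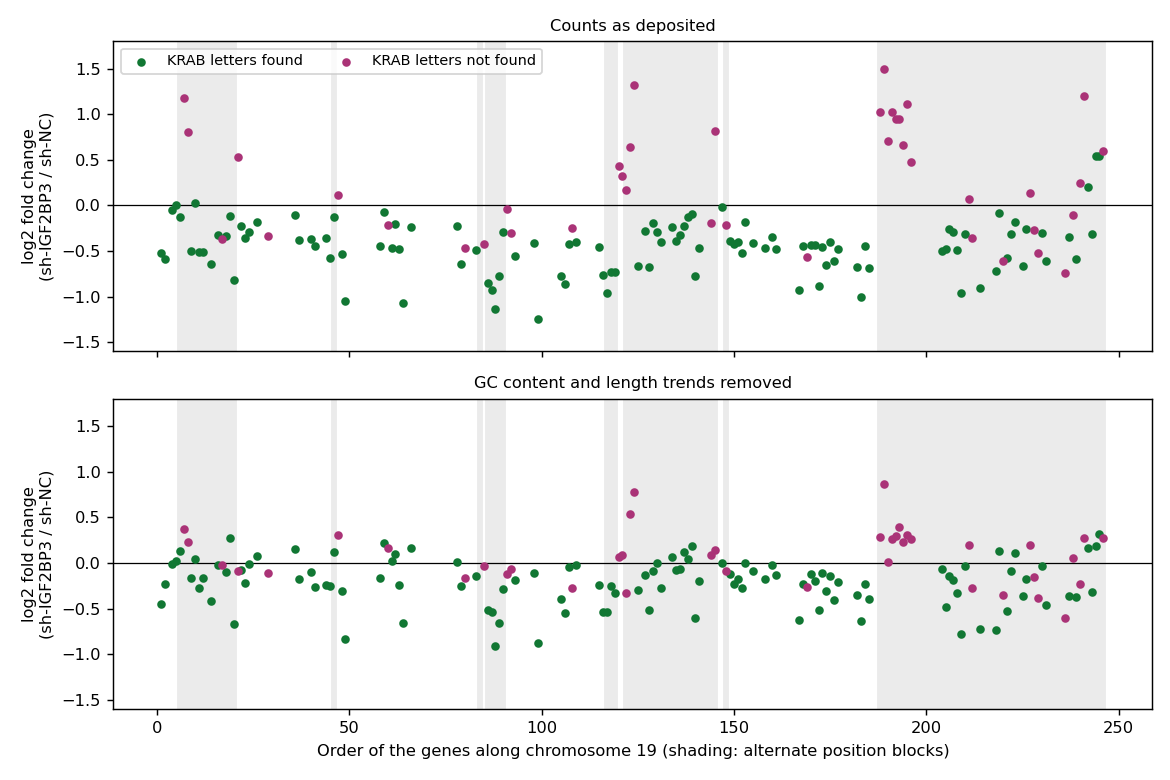
Log2 fold change (sh-IGF2BP3 over sh-NC) of the 156 tested genes in their order along chromosome 19, from counts as deposited (top) and with trends removed (bottom), with grey bands for alternate clusters and KRAB letters found in green or not found in purple. The run of purple points above 0 at the start of the last cluster is the 9 genes from ZNF628 to ZNF444, with a median of 0.95 on top and 0.29 below.

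The lowest clusters were those of ZNF302 and of ZNF780B. In the first, from 34677639 to 34964229, all 5 tested genes were lower, 3 at an unadjusted p under 0.05, with a median log2 fold change of −0.85, or −0.54 with the trends removed. In the cluster from 39984134 to 40090943, ZNF546, ZNF780B and ZNF780A were all lower at an unadjusted p under 0.05 with no overlap between the groups in CPM. The median was −0.73, or −0.33 with the trends removed. For ZNF780B the groups barely parted, with sh-NC 1 at 11.17 CPM and sh-IGF2BP3 1 at 11.15 CPM. In FPKM they overlapped, at 1.16 in sh-NC 1 and 1.21 in sh-IGF2BP3 1. The cluster from 51571283 to 53580269 held 39 ZNF genes, and all of its 24 tested genes were lower, 10 of them at an unadjusted p under 0.05, with a median of −0.46, or −0.22 with the trends removed. Over all genes tested, 8.54% were lower at that p and 11.0% were lower without overlap. Among all tested genes with the GC content of these clusters, 26.1% were lower at that p under 40% GC, where the median of the ZNF780B cluster lay, and 15.7% from 40% to 45%, where the medians of the other 2 clusters lay.

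The last cluster, from 55476617 to 58481230, held 59 ZNF genes and contained both directions side by side. Its first 9 genes, ZNF628, ZNF579, ZNF524, ZNF865, ZNF784, ZNF580, ZNF581, ZNF787 and ZNF444, none with KRAB letters and with a median GC content of 64.9%, were all higher. Their median log2 fold change was 0.95, or 0.29 with the trends removed, and 8 of the 9 had an unadjusted p under 0.05. The other coding genes of chromosome 19, with a median GC content of 60.1%, were higher at that p in 48.5% of cases. The remaining 50 genes had a median GC content of 46.1% in the 34 tested, of which 26 were lower and 8 higher, with a median of −0.31, or −0.18 with the trends removed. The border between the runs was drawn after the values were seen.

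Among the lower genes, ZNF525 had the smallest p. ZNF525 (ENSG00000203326, 53365693 to 53392217, plus strand) is a KRAB gene with 8 predicted fingers. It was at 13.9, 16.4 and 16 CPM in the control libraries and 6.75, 8.18 and 8.18 CPM in the knockdown libraries. The groups did not overlap, and the highest knockdown library stood well below the lowest control. The means were 15.4 ± 1.30 and 7.70 ± 0.825 CPM (SD, n = 3), and the log2 fold change was −1.0 with a standard error of 0.238 (unadjusted p = 0.00067, adjusted p = 0.103 in edgeR), or −0.64 with the trends removed. DESeq2 gave an adjusted p of 0.00873. ZNF525 overlaps 2 genes on its strand, and how shared reads were counted is not given in the sources used here.

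ZNF28 and ZNF808 lie in the same cluster as ZNF525. ZNF808 is known as a repressor of transposable elements that is needed for the pancreas to form. It was at 10.1, 16.1 and 15.5 CPM in the control libraries and 8.12, 5.89 and 7.89 CPM in the knockdown libraries, so that sh-NC 1 lay between the other sh-NC libraries and the sh-IGF2BP3 group. Its log2 fold change was −0.93 with a standard error of 0.268 (adjusted p = 0.108 in edgeR and 0.0296 in DESeq2), or −0.62 with the trends removed. ZNF28 was at 18.3, 23.9 and 23.8 CPM in the control libraries and 14.9, 9.42 and 11.5 CPM in the knockdown libraries, without overlap. Its log2 fold change was −0.88 with a standard error of 0.241 (adjusted p = 0.103 in edgeR and 0.0241 in DESeq2), or −0.52 with the trends removed. ZNF761, also from this cluster, did not reach an adjusted p of 0.05 in either tool with every library kept. It had 25.2 ± 3.53 CPM in sh-NC and 15.6 ± 3.55 CPM in sh-IGF2BP3 (SD, n = 3). Its log2 fold change was −0.69, or −0.40 with the trends removed. Without sh-NC 1 its adjusted p in edgeR was 0.0267.

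In the cluster that starts with it, ZNF302 (34677639 to 34686397, plus strand) had 7 predicted fingers and KRAB letters. It was at 14.7, 17.1 and 22.0 CPM in the control libraries and 10.1, 11.1 and 8.69 CPM in the knockdown libraries. The groups did not overlap, and sh-NC 1 was again the nearest control. The log2 fold change was −0.85 with a standard error of 0.243 (adjusted p = 0.108 in edgeR and 0.0269 in DESeq2), or −0.51 with the trends removed. Its neighbour ZNF181 had 7.35 ± 1.76 and 3.86 ± 0.626 CPM (SD, n = 3), a log2 fold change of −0.93, or −0.54 with the trends removed.

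Other clusters are represented by the tested gene with the smallest p in each, and ZNF507 was the only ZNF gene of its cluster. ZNF780B had 17.3 ± 5.90 and 10.5 ± 0.664 CPM (SD, n = 3), with a log2 fold change of −0.73, or −0.25 with the trends removed. For ZNF585B, which shares sequence with ZNF585A, sh-NC 1 at 7.34 CPM lay below sh-IGF2BP3 1 at 7.89 CPM, so the groups overlapped, and the log2 fold change was −0.87, or −0.55 with the trends removed. ZNF791 had a log2 fold change of −0.57, ZNF507 of −0.42 and ZNF555 of −0.59, and ZNF506, at 1.53 ± 0.149 and 0.736 ± 0.314 CPM, of −1.04. With the trends removed, ZNF791 was at −0.26, ZNF507 at −0.04, ZNF555 at −0.23 and ZNF506 at −0.84. Without sh-NC 3, ZNF555 was at −0.20. None of these had an adjusted p under 0.05 in either tool with every library kept, and DESeq2 gave ZNF506 none. Without sh-NC 1, the adjusted p in edgeR was 0.00932 for ZNF585B, 0.0116 for ZNF780B and 0.0415 for ZNF791. In that fit ZNF507, ZNF555 and ZNF506 stayed above 0.05.

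The higher genes were led by ZNF579 (ENSG00000218891, 55576774 to 55580848, minus strand), which had 8 predicted fingers, no KRAB letters and no overlapping gene. It was at 16.8, 10.7 and 9.50 CPM in the control libraries and 40.5, 42.7 and 21 CPM in the knockdown libraries. The sh-IGF2BP3 3 library lay between the controls and the other sh-IGF2BP3 libraries. The means were 12.3 ± 3.93 and 34.8 ± 11.9 CPM (SD, n = 3), and the log2 fold change of 1.5 was the highest of the 156 genes (standard error 0.288, unadjusted p = 9.22e-05, adjusted p = 0.103 in edgeR and 0.00116 in DESeq2). It was 0.87 with the trends removed.

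ZNF428 (43607224 to 43619629, minus strand) had 1 predicted finger. It was at 5.42, 4.09 and 4.39 CPM in the control libraries and 14.4, 14.2 and 6.25 CPM in the knockdown libraries. The position of sh-IGF2BP3 3 was as for ZNF579, just above the controls. The log2 fold change was 1.32 with a standard error of 0.323 (adjusted p = 0.103 in edgeR and 0.00958 in DESeq2), or 0.78 with the trends removed. It overlaps a gene on the other strand, and whether reads were assigned by strand is not given in the sources used here.

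ZNF358, ZNF865, ZNF787, ZNF628 and ZNF580 were also called higher by DESeq2, with GC contents from 61.7% in ZNF580 to 71.1% in ZNF865. ZNF865 was at 14.9, 12.3 and 11.1 CPM in the control libraries and 33.7, 27.3 and 17.2 CPM in the knockdown libraries, and its log2 fold change of 1.03 became 0.27 with the trends removed. For ZNF787 the level was 22.5, 15.9 and 11.6 CPM in the control libraries and 41.1, 43.1 and 24 CPM in the knockdown libraries, and the log2 fold change of 1.11 became 0.31. In both, sh-IGF2BP3 3 was the lowest of its group and lay above sh-NC 1 by a small margin. ZNF358 had log2 fold changes of 1.17 and 0.37, ZNF628 of 1.03 and 0.29, and ZNF580 of 0.95 and 0.40, before and after the trends were removed. ZNF358 shared 18.8% of its windows of 75 bases with transcripts of other genes and overlapped a gene on each strand. The groups overlapped for ZNF628 and ZNF580. ZNF580 and ZNF581 overlap each other on the same strand, so their counts may not be separate, and ZNF581 had a log2 fold change of 0.67, or 0.23.

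**Figure D5:**
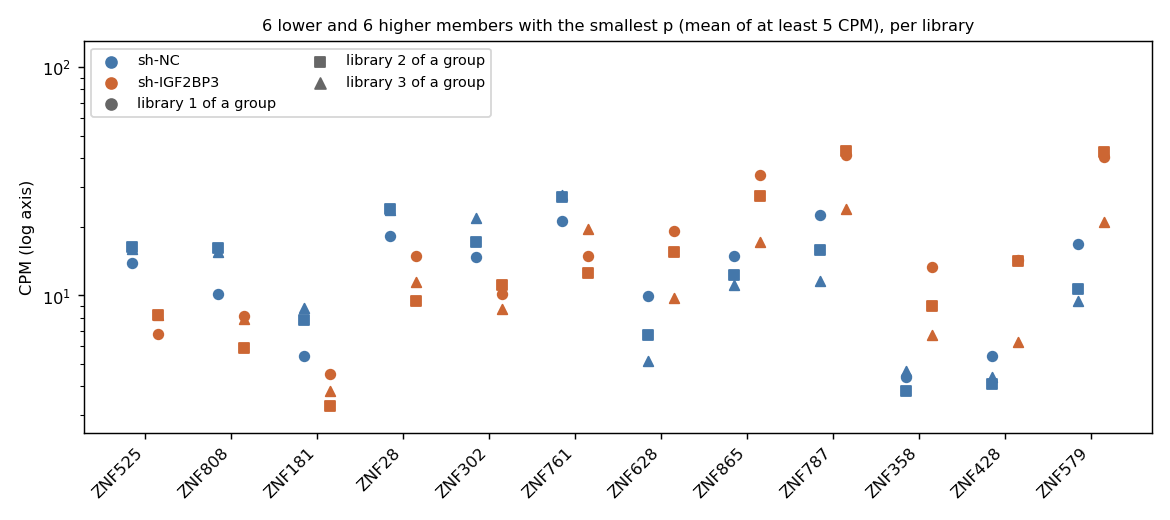
Level (CPM, log axis) in each library of the 6 lower and 6 higher genes with the smallest p among those with a mean of at least 5 CPM, sh-NC in blue, sh-IGF2BP3 in orange, the marker shape giving the library. In the higher genes the triangle of sh-IGF2BP3 3 lies nearest to the controls, as for ZNF579 at 21 CPM against 16.8 CPM in sh-NC 1.

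Of the 4 most abundant genes, ZNF581 was described above. ZNF146 was at 266, 268 and 252 CPM in the control libraries and 171, 230 and 238 CPM in the knockdown libraries. The groups did not overlap, but sh-IGF2BP3 1 alone lay far from the controls, and the log2 fold change was −0.30 with a standard error of 0.190 (adjusted p = 0.360 in edgeR), or −0.06 with the trends removed. Without sh-IGF2BP3 1 it was −0.16. ZNF121 had the same form, with 190 ± 1.12 and 146 ± 30.4 CPM (SD, n = 3) and a log2 fold change of −0.37, or −0.02 with the trends removed and −0.21 without sh-IGF2BP3 1. ZNF317, at 70.1 ± 6.38 and 71.5 ± 6.74 CPM (SD, n = 3), had overlapping groups and a log2 fold change of 0.03 (standard error 0.179), or 0.05 with the trends removed.

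In further clusters the gene with the smallest p had overlapping groups. ZNF473, ZNF114 and ZNF333 were each the only tested gene of their cluster. ZNF473, known for its part in processing the 3′ end of histone messages, had 28.4 ± 4.05 and 24.5 ± 1.05 CPM (SD, n = 3) and a log2 fold change of −0.21, or −0.09 with the trends removed. It ran from −0.14 without sh-NC 2 to −0.32 without sh-NC 1. ZNF114, ZNF333 and ZNF574 had log2 fold changes of −0.014, −0.13 and 0.43, or −0.0037, 0.13 and 0.06 with the trends removed. ZNF574 was at 0.79 without sh-NC 1, with an adjusted p of 0.015 in edgeR, at 0.28 without sh-NC 2 and at 0.26 without sh-NC 3. ZNF333 changed sign without sh-NC 2 as well, at 0.02. Genes on the same strand overlapped 11 of the 27 genes named by rule, and genes on the other strand 16. Over all 156 tested genes these numbers were 66 and 84.

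The proteins through which KRAB zinc fingers act were read from the same fit. None of the 17 listed partner genes had an adjusted p under 0.05 in edgeR (smallest 0.124) or in DESeq2, while 4 were lower and 1 higher at an unadjusted p under 0.05, against 8.54% and 13.6% of all genes tested. TRIM28, the direct partner of KRAB, was at 884, 525 and 391 CPM in the control libraries and 829, 774 and 828 CPM in the knockdown libraries. Thus the controls differed more among themselves than the groups did. The log2 fold change was 0.43, or −0.04 with the trends removed, and it was 0.83 without sh-NC 1 and 0.18 without sh-NC 3. ATF7IP, a stabilizing partner of SETDB1, was at 51.4, 112 and 129 CPM in the control libraries and 63.6, 42.0 and 57.6 CPM in the knockdown libraries. Its groups overlapped through sh-NC 1, with a log2 fold change of −0.84, or −0.38 with the trends removed.

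TASOR, the scaffold of the HUSH silencing complex, had a log2 fold change of −0.56, CBX5, a heterochromatin protein that binds methylated histone, of −0.43 and SMARCAD1, a chromatin remodeller that binds TRIM28, of −0.43. With the trends removed these were −0.10, −0.01 and −0.06, and SMARCAD1 was at −0.26 without sh-IGF2BP3 1. UHRF1, which guides DNA methylation to newly copied DNA, had a log2 fold change of 0.90, or 0.78 with the trends removed. It was at 359, 187 and 112 CPM in the control libraries and 379, 467 and 381 CPM in the knockdown libraries. The groups did not overlap, with sh-NC 1 just below the sh-IGF2BP3 libraries, and the unadjusted p was 0.0100 in edgeR. The log2 fold change was 1.46 without sh-NC 1 and 0.56 without sh-NC 3.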

How the data were processed

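Total RNA of HCT116 cells was made into TruSeq libraries and sequenced. The authors deposited raw counts per gene, with no normalization, and FPKM values, which are those counts divided by the total and by a gene length. The submitters' processing notes name CASAVA and GRCh38. The aligner, the counting tool and the use of strand are not given in the sources used here.

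The test of the counts was that of edgeR 4.0.16 in R 4.3.3 (filterByExpr, TMM, quasi-likelihood test, two-sided, Benjamini-Hochberg adjustment over all 16753 genes tested). A call needed an adjusted p under 0.05 and a fold change above 1.5, the thresholds in the study's methods. Alternatives used DESeq2 1.42.0 and limma 3.58.1 (log2 of FPKM plus 1 or 0.1, genes with a mean of at least 1), RLE scaling, other filters, a replicate block, each library left out, and removal of each library's trends in GC content and gene length (splines with 5 degrees of freedom). The longest transcript of GENCODE 29 gave the GC content, for 96.9% of tested genes. CPM values are TMM-scaled, except the limits at 0 counts, which use the raw library totals. The main edgeR and DESeq2 steps were run on simulated counts. These had a capped spread between libraries and no trend with GC content or length, so the removal of trends was not tested on them. Libraries held 16146718 to 23576469 counts, and limits at 0 counts cover counting error only. No per-sample column was left unused, and no batch was given in the labels.

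The rule for named genes took, from each cluster, the tested gene with the smallest p, the 6 genes of at least 5 CPM with the smallest p in each direction, the 4 with the highest FPKM, those with an adjusted p under 0.05 in either tool, and partner genes with an unadjusted p under 0.05. The genes, lists and rules were chosen with earlier results of these data known, and the pattern of KRAB letters was widened from tryptophan to tryptophan or leucine after it was seen which genes matched.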

Additional observations from a re-analysis of the deposited data

How the results depend on the processing

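The count of 0 genes called was kept with RLE scaling, at least 10 counts in every library, the block, both FPKM settings and both settings with trends removed. The calls were 7 higher and 4 lower in DESeq2, and 7 and 3 in edgeR where low counts were not filtered. When a library was left out, 0 to 12 genes were called higher and 0 to 17 lower, the most without sh-NC 1, and 6 higher without sh-IGF2BP3 3. At an unadjusted p under 0.05, the genes lower went from 37 to 20 with the replicate block, 23 with log2(FPKM + 1), a fit that held 108 of the genes, 8 with GC and length trends removed, 5 with this and the block, and 13 to 54 on leaving out a library. The genes higher went from 14 to 3 with the trends removed, 2 with the block added, and 8 to 20 on leaving out a library. No share of all genes tested is given at that p with the block, in the FPKM settings or with a library left out. The counts of those settings cannot be set against the whole table. The median log2 fold change was −0.14 with the trends removed and −0.13 with the block added, and −0.44 to −0.33 on leaving out a library. ZNF333 turned to 0.13 with the trends removed and 0.14 with the block added, and ran from −0.361 to 0.0201 on leaving out a library. ZNF114 ran from −0.19 to 0.20 and ZNF317 from −0.0649 to 0.11, and ZNF317 was at −0.0448 and −0.0481 in the FPKM settings. The cause was not tested.

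The series speaks of 3 pairs without saying what a pair shares. Libraries with the same number did not deviate together (correlations −0.28, −0.19 and −0.04), and none correlated best with its own number. The replicate block was therefore kept as an alternative. Low levels limit single genes, since 90 of the 246 could not be tested.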
